A study of Homo sapiens with 6 samples.

Results

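WNT signalling was examined as a list of 46 genes: 12 WNT ligands, 9 Frizzled (FZD) receptors, 5 co-receptors, 3 Dishevelled adaptors, 5 components of the destruction complex, 4 TCF/LEF transcription factors, 3 secreted inhibitors and 5 genes of receptor turnover and feedback. The members were taken by gene symbol from the 37887 rows of the count table, and all 46 were found. Of these, 42 had enough counts to be tested, among 15355 tested genes in all. WNT3, WNT11, RNF43 and NKD2 did not pass the low-count filter.

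WNT proteins are lipid-modified secreted ligands that bind Frizzled receptors. With the co-receptors LRP5 or LRP6 they act through Dishevelled to stop a cytoplasmic destruction complex, built on APC and AXIN with the kinases GSK3B and CSNK1A1, from marking β-catenin for degradation, and β-catenin then acts on genes with TCF/LEF factors. Other ligands, with WNT5A as the textbook case, signal through ROR and RYK receptors to the cytoskeleton and cell polarity. In basal and mesenchymal breast cancer cells the pathway is known for links to stem-like states and migration.

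RNA-seq was performed on MDA-MB-436 cells, an established triple-negative breast cancer line that the study describes as BRCA1 mutant, in 2 groups of 3 libraries. All cells, in both groups, held an integrated MUC1 shRNA under a tetracycline-inducible promoter in the vector pLKO-tet-puro, with puromycin selection per the study's methods, and it is not said whether they are 1 clone. The control group received 0.1% DMSO as vehicle, and the shMUC1 group received 500 ng/ml doxycycline (DOX), which turns the shRNA on. The titles of the control samples read control shRNA, whereas their treatment label is DMSO and the design text gives 1 line with the MUC1 shRNA, which was followed here. The time on DOX is not given for this line. No DOX-treated library without the MUC1 shRNA, and none with a different MUC1 shRNA, was analysed. DOX itself, off-target effects of the shRNA and MUC1 silencing therefore cannot be told apart.

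Library totals ran from 18678307 to 27825546 counts. The targeted gene MUC1, measured first, was at 3.88 ± 0.401 CPM (counts scaled to a common library size) in control and 2.14 ± 0.412 CPM in shMUC1 libraries (SD, n = 3 each), and the groups did not overlap. ESR1 and PGR, which a triple-negative line should lack, summed to at most 0.645 CPM in any library. Of 8 epithelial markers 3 passed the filter, EPCAM, KRT8 and KRT18, and all 3 rose: their list summed to 540.3 to 574.3 CPM in control and 1085 to 1127 CPM in shMUC1 libraries, with GRHL2 at 0 throughout. Of 4 mesenchymal markers VIM, ZEB1 and SPARC fell and FN1 rose, with summed levels of 1700 to 1726 CPM against 1702 to 1736 CPM. Of 4 leukocyte markers PTPRC and CD14 rose, by log2 fold changes of 1.59 (SE 0.523) and 1.08 (SE 0.177). PTPRC had few counts, 2, 6 and 10 in control and 21, 24 and 10 in shMUC1 libraries. The leukocyte list summed to 3.08 to 3.41 CPM in control and 5.48 to 8.54 CPM in shMUC1 libraries, with CD3E at 0 in all 6. Of 3 endothelial markers PECAM1 fell by 1.94 on the log2 scale (SE 0.438), from at most 40 counts in any library. The endothelial list summed to 1.74 to 2.10 CPM against 0.544 to 0.699 CPM. Of 3 fibroblast markers none was called, with sums of 0.739 to 1.19 CPM against 0.155 to 0.796 CPM and DCN and LUM at 0 throughout. The part of these marker shifts in the WNT results was not tested, and in bulk RNA fewer cells of a type and less RNA per cell cannot be told apart.

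Changes were called at an adjusted p under 0.05, from the quasi-likelihood test of edgeR and adjusted by Benjamini-Hochberg over all tested genes. By this rule 10 of 42 tested members (23.8%) rose, beside 25.2% of all tested genes, and 15 (35.7%) fell, beside 23.6%. With a fold change over 2 required as well, 2 members rose (4.76%, beside 2.21% of all tested genes) and 4 fell (9.52%, beside 3.74%). In CPM the groups did not overlap for 10 tested members that were higher (23.8%, beside 28.1%) and 16 that were lower (38.1%, beside 26.8%) in shMUC1 cells. The median log2 fold change was -0.12 over the 42 members and 0.0006 over all tested genes. The share of members that rose lay near the background. The 6 members past both rules were WNT7A and WNT10A among rises, and WNT4, WNT5B, WNT6 and FZD2 among falls, so all but FZD2 were ligands. Of these ligands, WNT4, WNT6 and WNT10A had at most 36 counts in any library and lost the call with DESeq2.

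**Figure D1:**
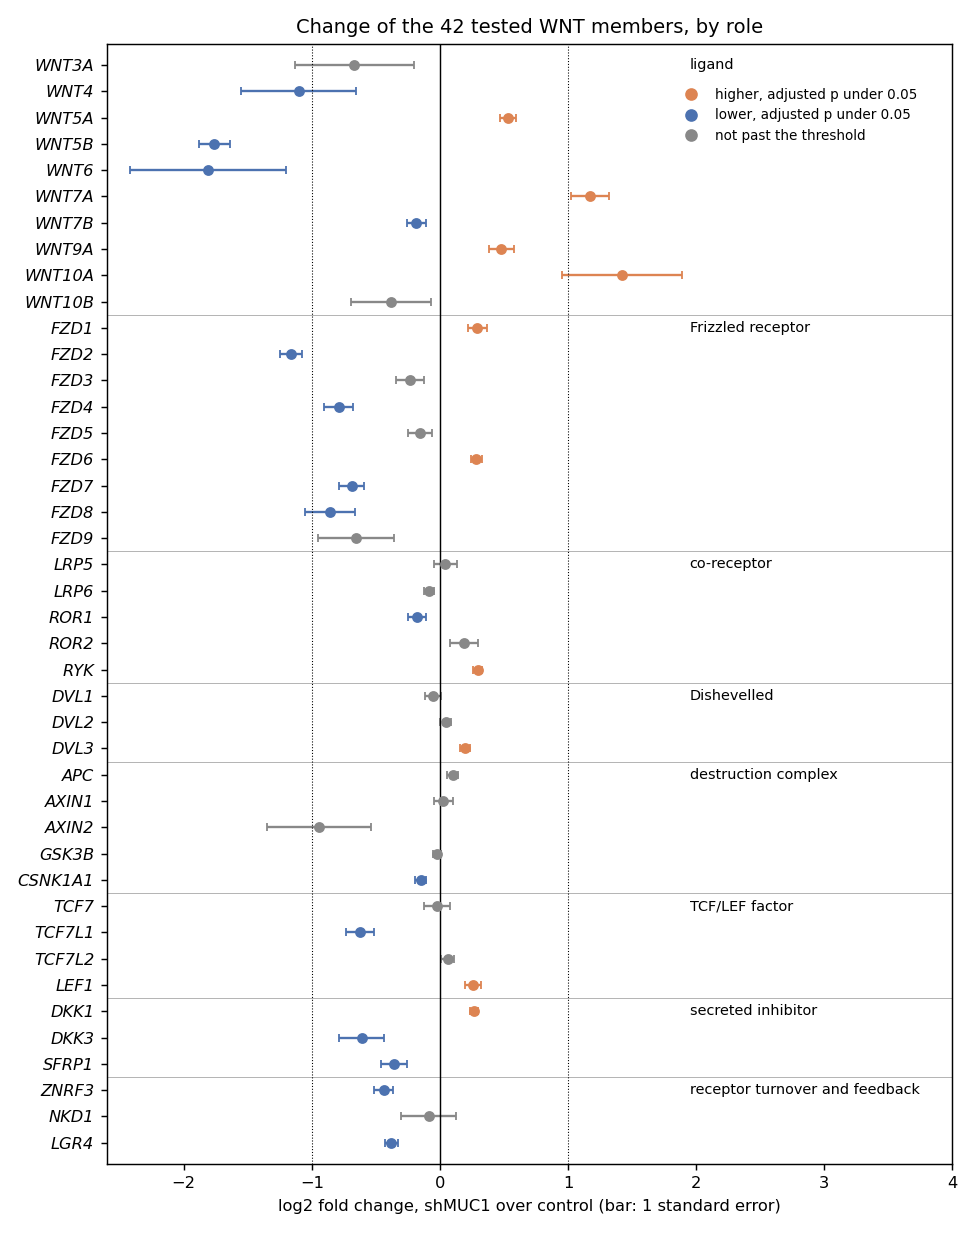
Log2 fold change of each tested member in shMUC1 over control cells, grouped by role, with bars of 1 standard error and dotted lines at a 2-fold change. The farthest points are ligands, from -1.81 for WNT6 to 1.42 for WNT10A, while Dishevelled and destruction complex members other than AXIN2 lie within 0.20 of 0. WNT6 and WNT10A had few counts, with SEs of 0.61 and 0.469.

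Levels can be compared between genes only per length, so CPM was divided by the kilobases of annotated exon. That length merged the exons of all annotated transcripts of a gene, whichever were expressed. Ranks, shares and ratios between genes depend on this choice. In control cells the ligands ranked WNT7B (5.75 CPM per kilobase), WNT5A (4.58), WNT5B (4.16), WNT9A (3.61) and WNT7A (0.923), with every other ligand under 0.7. In shMUC1 cells the order was WNT5A (6.63), WNT7B (5.06), WNT9A (5.02), WNT7A (2.09) and WNT5B (1.23). The neighbours WNT5B and WNT9A in the control order, and WNT7B and WNT9A in the shMUC1 order, had overlapping ranges. Summed over 12 ligands, the level was 20.6 ± 1.37 CPM per kilobase in control and 21.2 ± 0.487 in shMUC1 libraries (SD, n = 3 each), ranges that overlapped. Within that sum the shares of single ligands differed between groups, as the next values show.

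WNT5A and WNT5B are close paralogs known best for β-catenin-independent signalling. They lie on different chromosomes, WNT5A at chr3:55465715-55490539 (minus strand) and WNT5B at chr12:1529891-1647243 (plus strand) in GRCh38. WNT5A was at 32.8, 34.0 and 34.8 CPM in control libraries and 48.5, 50.3 and 48.3 CPM in shMUC1 libraries. All 3 shMUC1 libraries lay above every control library, and WNT5A rose by a log2 fold change of 0.53 (SE 0.0607; edgeR adjusted p 2.29e-09). WNT5B was at 16.9, 18.0 and 18.8 CPM in control and 5.75, 4.27 and 5.91 CPM in shMUC1 libraries. Here every shMUC1 library lay below the controls, and WNT5B fell 3.39-fold, a log2 fold change of -1.76 (SE 0.121; edgeR adjusted p 5.56e-15). The paralogs therefore went opposite ways: the ratio of WNT5A to WNT5B per kilobase was 1.13, 1.10 and 1.08 in control and 4.90, 6.86 and 4.75 in shMUC1 libraries.

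WNT7A and WNT7B form another pair of paralogs, and both can signal through β-catenin. WNT7A, at chr3:13816258-13880121 (minus strand), was at 4.20, 3.41 and 5.07 CPM in control and 8.90, 9.59 and 10.3 CPM in shMUC1 libraries. It rose 2.26-fold with no overlap between groups, a log2 fold change of 1.17 (SE 0.147; edgeR adjusted p 1.73e-08). WNT7B was at 28.6, 28.2 and 30.4 CPM in control and 25.7, 26.0 and 25.1 CPM in shMUC1 libraries. Its fall was small, a log2 fold change of -0.18 (SE 0.0731; edgeR adjusted p 0.0356), and the call was lost in 7 of 14 alternative analyses, in 5 of which 1 library had been left out. WNT7B stayed 2.21 to 2.61 times the level of WNT7A per kilobase in shMUC1 libraries, against 5.44 to 7.49 times in control libraries. WNT9A, a β-catenin ligand known from joint development, was at 14.0, 12.7 and 16.3 CPM in control and 19.5, 21.4 and 18.9 CPM in shMUC1 libraries, and rose by a log2 fold change of 0.48 (SE 0.0978; edgeR adjusted p 9.14e-05).

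The other ligands were near the limit of detection. WNT6 had 12, 10 and 14 counts in control and 4, 4 and 2 in shMUC1 libraries, a log2 fold change of -1.81 (SE 0.61; edgeR adjusted p 0.0131). WNT4, a ligand of mammary side-branching, had 18, 24 and 22 counts in control and 14, 12 and 4 in shMUC1 libraries, a log2 fold change of -1.10 (SE 0.447; edgeR adjusted p 0.0393). WNT10A had 6, 8 and 12 counts in control and 36, 28 and 8 in shMUC1 libraries, a log2 fold change of 1.42 (SE 0.469; edgeR adjusted p 0.0116). In CPM the groups separated for WNT6 and WNT4 and overlapped for WNT10A, whose shMUC1 replicate 3 lay within the control range. These calls were fragile. That of WNT4 was lost without any 1 of the 6 libraries (adjusted p up to 0.154 over the alternatives). That of WNT10A was lost without control replicate 1, shMUC1 replicate 1 or shMUC1 replicate 2. With DESeq2 the calls of WNT6, WNT4 and WNT10A were all lost. With halved counts WNT6 and WNT10A did not pass the low-count filter, so they had no test there.

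WNT3A and WNT10B did not pass the test, with log2 fold changes of -0.67 (SE 0.465) and -0.38 (SE 0.315) from at most 26 and 52 counts in any library. WNT3 had 8, 10 and 12 counts in control and 10, 2 and 6 in shMUC1 libraries. WNT11 had 2 counts in 1 control library and 0 in the other 5, and a count of 0 in shMUC1 libraries allows up to 0.109 to 0.161 CPM. In CPM the WNT3 groups did not overlap, by a narrow margin, with 0.365 CPM in the lowest control library and 0.362 CPM in the highest shMUC1 library. Neither WNT3 nor WNT11 was tested, so at this depth it is not known whether they differed.

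**Figure D2:**
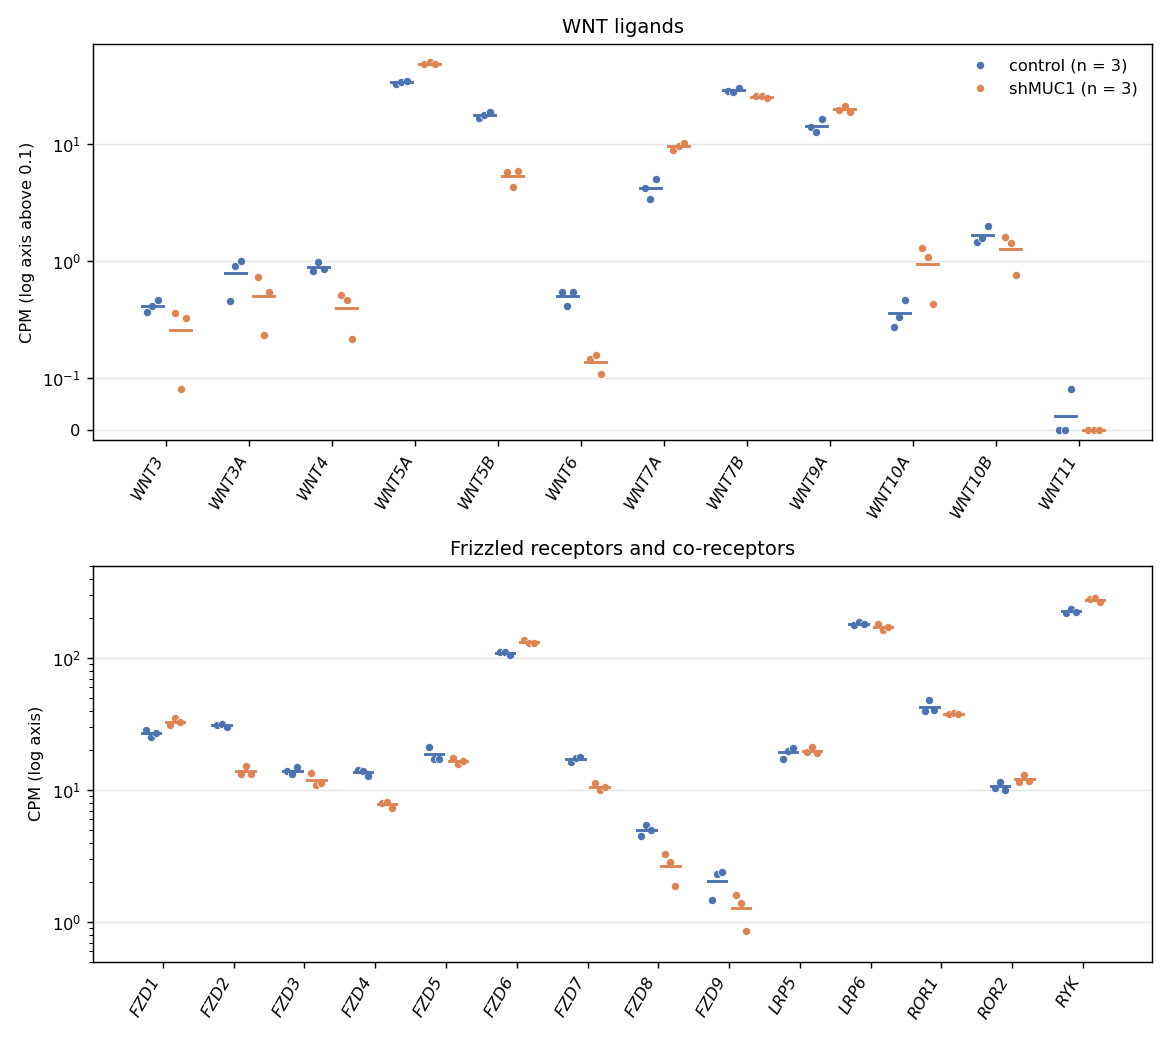
CPM of each WNT ligand (top), and of each Frizzled receptor and co-receptor (bottom), in 3 control and 3 shMUC1 libraries, with points for libraries and lines for means. The axes are logarithmic, and that of the top panel becomes linear below 0.1 CPM to show 0. WNT5A, WNT7A, WNT9A, FZD1, FZD6 and RYK are higher in shMUC1 cells, and WNT5B, FZD2, FZD4, FZD7 and FZD8 are lower.

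Among Frizzled receptors, which are 7-pass membrane proteins with a cysteine-rich WNT-binding domain, FZD1 and FZD6 rose, FZD2, FZD4, FZD7 and FZD8 fell, and FZD3, FZD5 and FZD9 did not pass the test. FZD6 was the main Frizzled transcript per kilobase in both groups. It was at 111.8, 111.4 and 105 CPM in control and 137.3, 131 and 131.2 CPM in shMUC1 libraries, a log2 fold change of 0.28 (SE 0.0409; edgeR adjusted p 2.85e-07). Its share of the summed Frizzled level per kilobase was 46.6% ± 0.651 in control and 62.5% ± 1.1 in shMUC1 libraries (SD, n = 3 each). The summed level itself was 57.8 ± 1.21 CPM per kilobase in control and 52.5 ± 1.23 in shMUC1 libraries (SD, n = 3 each), and the groups did not overlap.

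FZD1, FZD2 and FZD7 make up 1 subfamily by sequence and are often studied together as receptors of the β-catenin branch. FZD2, a single-exon gene at chr17:44557459-44559570 (plus strand), was at 31.4, 31.9 and 30.3 CPM in control and 13.2, 15.2 and 13.3 CPM in shMUC1 libraries. It fell 2.24-fold, a log2 fold change of -1.16 (SE 0.0835; edgeR adjusted p 1.95e-14), with no overlap. FZD7 was at 16.2, 17.5 and 17.8 CPM in control and 11.3, 10.1 and 10.5 CPM in shMUC1 libraries, a log2 fold change of -0.69 (SE 0.101; edgeR adjusted p 3.73e-07). FZD1 went the other way, from 28.6, 25.0 and 27.3 CPM to 31.1, 35.2 and 32.6 CPM, a log2 fold change of 0.29 (SE 0.0736; edgeR adjusted p 0.00118). The ratio of FZD1 to FZD2 per kilobase was between 0.238 and 0.276 in control and between 0.701 and 0.741 in shMUC1 libraries. The share of FZD2 in the summed Frizzled level went from 25.6% ± 0.269 to 12.6% ± 1.04 (SD, n = 3 each).

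FZD4, the receptor for norrin in retinal vessels, was at 14.2, 14.0 and 12.7 CPM in control and 7.998, 8.193 and 7.364 CPM in shMUC1 libraries, a log2 fold change of -0.79 (SE 0.112; edgeR adjusted p 2.44e-07). FZD4 shares 1399 bases of exon with PRSS23 on the opposite strand, and since the strand setting of the counting is not given, its level is uncertain. FZD8 was at 4.47, 5.419 and 4.995 CPM in control and 3.29, 2.87 and 1.88 CPM in shMUC1 libraries, a log2 fold change of -0.86 (SE 0.194; edgeR adjusted p 0.000321). FZD5, the close relative of FZD8, had a log2 fold change of -0.16 (SE 0.0955), and FZD3, the relative of FZD6 in the planar polarity branch, one of -0.23 (SE 0.107). FZD9 had a log2 fold change of -0.65 (SE 0.298) from at most 62 counts. FZD3 passed the test in 4 of 14 alternative analyses and FZD9 in 1 of 13, so the absence of a call does not show that their levels were the same.

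**Figure D3:**
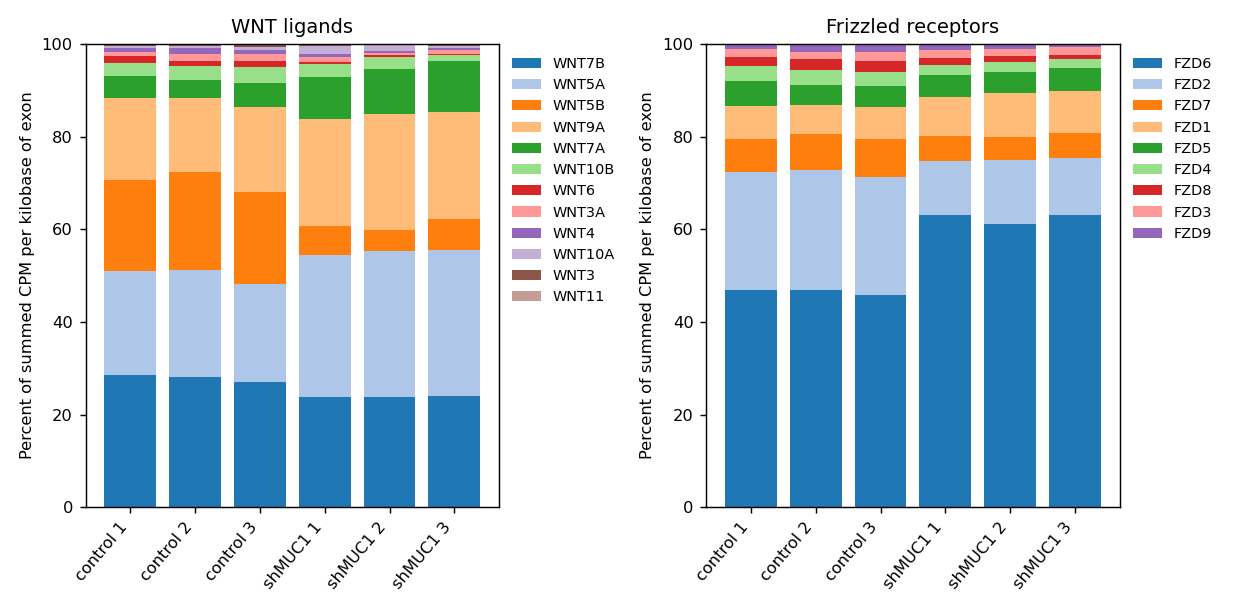
Share of each ligand (left) and each Frizzled receptor (right) in the summed CPM per kilobase of its class, as stacked bars for each of the 6 libraries. WNT5B falls from 20.2% to 5.84% of the ligand sum on average and FZD2 from 25.6% to 12.6% of the Frizzled sum, while FZD6 goes from 46.6% to 62.5%.

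The co-receptors moved less. RYK, a receptor with a catalytically inactive kinase domain that binds WNT5A, was the highest of them per kilobase, at 218.3, 235.1 and 223.9 CPM in control and 282, 284.2 and 264.2 CPM in shMUC1 libraries. It rose by a log2 fold change of 0.29 (SE 0.0361; edgeR adjusted p 1.07e-08), and its groups did not overlap. ROR1, a receptor of WNT5A, averaged 42.8 ± 4.6 CPM in control and 37.9 ± 0.401 CPM in shMUC1 libraries (SD over 3 libraries), a log2 fold change of -0.18 (SE 0.0674; edgeR adjusted p 0.0268). That call was lost with DESeq2 and without control replicate 2, the library with the highest ROR1 level, where the log2 fold change was -0.0852 (edgeR adjusted p 0.351), and also without any 1 of the shMUC1 libraries. ROR2 had a log2 fold change of 0.19 (SE 0.11) and did not pass. LRP5 and LRP6, the co-receptors of the β-catenin branch, had log2 fold changes of 0.0411 (SE 0.0888) and -0.0868 (SE 0.0386), and LRP6 passed in 5 of 14 alternative analyses.

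Of the cytoplasmic members, DVL3 and CSNK1A1 passed the test and both by small amounts. DVL3 was at 141.1, 140 and 144.3 CPM in control and 162, 163.2 and 161.6 CPM in shMUC1 libraries, a log2 fold change of 0.19 (SE 0.037; edgeR adjusted p 3.37e-05), with log2 fold changes of -0.0538 (SE 0.0619) for DVL1 and 0.0448 (SE 0.0412) for DVL2. CSNK1A1, the casein kinase that primes β-catenin for GSK3B, was at 110.4, 112.1 and 107.4 CPM in control and 97.4, 101.3 and 98.3 CPM in shMUC1 libraries, a log2 fold change of -0.15 (SE 0.0415; edgeR adjusted p 0.0025). GSK3B, the member with the highest CPM, was at 509 ± 12.3 CPM in control and 502 ± 14.7 CPM in shMUC1 libraries (SD over 3 libraries), a log2 fold change of -0.0201 (SE 0.0311). APC and AXIN1, the scaffolds, had log2 fold changes of 0.0987 (SE 0.0461) and 0.0275 (SE 0.0713). Because 2886 exon bases of CSNK1A1 also belong to AC021078.1, in the same orientation, its level is uncertain.

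AXIN2 is both a scaffold of the destruction complex and the best known feedback target of β-catenin with TCF/LEF. It had 19, 23 and 55 counts in control and 21, 12 and 16 in shMUC1 libraries, or 0.867, 0.944 and 2.13 CPM against 0.76, 0.466 and 0.86 CPM. Control replicate 3 lay far above the other libraries, and the lowest control and highest shMUC1 levels were nearly equal. The log2 fold change was -0.94 (SE 0.403), and AXIN2 missed the threshold with an edgeR adjusted p of 0.0508. Without control replicate 3 the log2 fold change was -0.41 (edgeR adjusted p 0.523), so the size of the difference rested on that library. AXIN2 passed the test in 5 of 13 alternative analyses, which were library totals only, no low-count filter, halved counts (edgeR adjusted p 0.0205), and leaving out control replicate 1 or control replicate 2. AXIN2 also shares 1316 bases of exon with AC004805.1 on the same strand.

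Among TCF/LEF factors, which bind DNA through an HMG box, TCF7L1 fell and LEF1 rose. TCF7L1, known mainly as a repressor of the pathway's genes, was at 16.1, 14.8 and 15.2 CPM in control and 10.2, 10.9 and 8.49 CPM in shMUC1 libraries. Its log2 fold change was -0.63 (SE 0.108; edgeR adjusted p 7.5e-06), with no overlap between groups. LEF1 was at 42.6, 37.3 and 37.4 CPM in control and 48.8, 46.3 and 44.6 CPM in shMUC1 libraries, a log2 fold change of 0.26 (SE 0.0637; edgeR adjusted p 0.000958), also with no overlap. TCF7L2, the highest of the 4 per kilobase, and TCF7 had log2 fold changes of 0.0597 (SE 0.0489) and -0.0208 (SE 0.1). The ratio of TCF7L2 to TCF7L1 per kilobase was 3.11 ± 0.132 in control and 5.07 ± 0.474 in shMUC1 libraries (SD, n = 3 each). On the opposite strand LEF1 shares 279 bases of exon with LEF1-AS1, TCF7L2 shares 300 with AL158212.2 and TCF7 shares 210 with SKP1.

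All 3 secreted inhibitors among the members passed the test, with 1 rise (33.3%) and 2 falls (66.7%), beside 25.2% and 23.6% of all tested genes. Of 14 further secreted inhibitors in the wider list of the pathway described below, 5 were tested. Of those 5, 2 fell (40%, beside 23.6% of all tested genes) and 3 did not pass. DKK1, which blocks LRP5 and LRP6, was the most abundant member per kilobase in both groups, at 387.7, 388.3 and 413.7 CPM in control and 478.6, 481.4 and 473.7 CPM in shMUC1 libraries. It rose by a log2 fold change of 0.27 (SE 0.0317; edgeR adjusted p 4.73e-09) with no overlap between groups. DKK1 shares 212 of its 2206 exon bases with PRKG1-AS1 on the opposite strand. DKK3, a divergent member of the Dickkopf family, was at 4.789, 4.804 and 4.956 CPM in control and 3.04, 3.42 and 3.06 CPM in shMUC1 libraries, a log2 fold change of -0.61 (SE 0.175; edgeR adjusted p 0.00388). SFRP1, which binds WNT proteins outside the cell, was at 19.9, 16.4 and 19.6 CPM in control and 15.8, 14.8 and 12.7 CPM in shMUC1 libraries, a log2 fold change of -0.36 (SE 0.0996; edgeR adjusted p 0.00281).

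Of the 3 tested genes of receptor turnover and feedback, ZNRF3 and LGR4 fell and NKD1 did not pass the test. ZNRF3 is a ubiquitin ligase that removes Frizzled receptors from the surface, and LGR4 is the R-spondin receptor that holds it back. ZNRF3 was at 29.9, 30.6 and 28.5 CPM in control and 22.8, 21.0 and 21.8 CPM in shMUC1 libraries, a log2 fold change of -0.44 (SE 0.0757; edgeR adjusted p 6.98e-06). LGR4 was at 70.5, 72.1 and 76.2 CPM in control and 54.4, 56.9 and 57.2 CPM in shMUC1 libraries, a log2 fold change of -0.38 (SE 0.0511; edgeR adjusted p 8.03e-08). The groups did not overlap for either gene, and both the ligase and its antagonist fell.

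RNF43, the paralog of ZNRF3, had 0 counts in 5 libraries and 8 in shMUC1 replicate 2, and a count of 0 in control libraries allows up to 0.116 to 0.137 CPM. NKD1, a Dishevelled antagonist and feedback gene, had a log2 fold change of -0.0879 (SE 0.216). NKD2 had at most 20 counts in any library and was not tested. RNF43 shares 4469 of its 7505 exon bases with SUPT4H1 and AC004687.2 on its own strand, and 1521 with TSPOAP1-AS1 on the opposite strand. How reads in shared bases were counted is not given, so the level of RNF43 and its upper limit are uncertain.

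**Figure D4:**
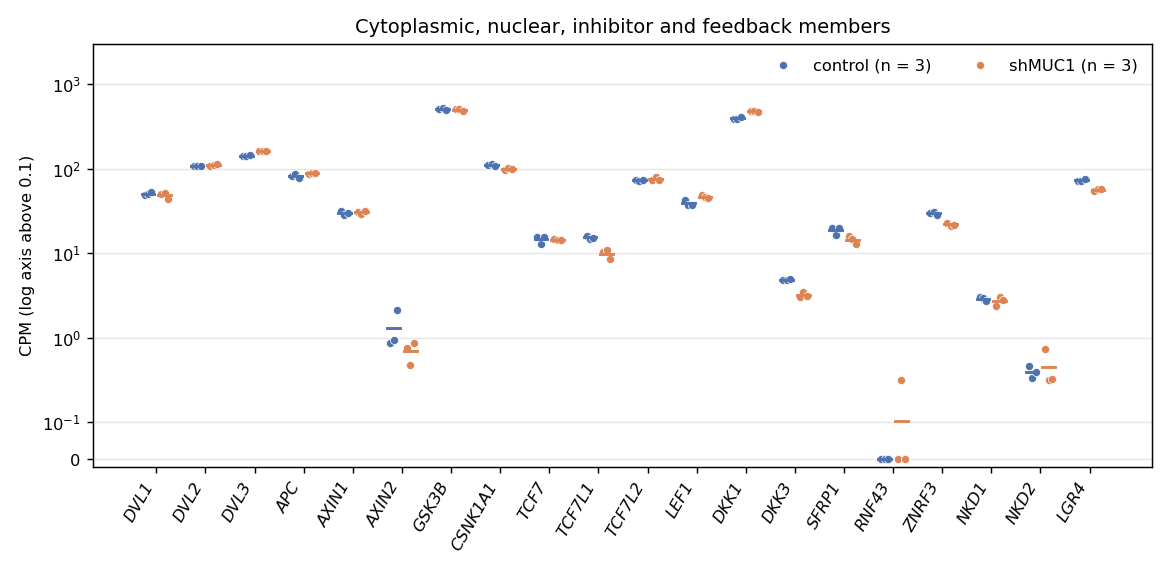
CPM of Dishevelled, destruction complex, TCF/LEF, inhibitor and feedback members in 3 control and 3 shMUC1 libraries, on a logarithmic axis that becomes linear below 0.1 CPM, with points for libraries and lines for means. DVL3, LEF1 and DKK1 are higher and CSNK1A1, TCF7L1, DKK3, SFRP1, ZNRF3 and LGR4 lower in shMUC1 cells, and 1 control library sets AXIN2 apart.

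The 3' untranslated regions (3' UTRs) of the members were searched for ATCAGTA, a 7-base word that an earlier look at these fold changes had tied to lower expression across genes. The word is thus no independent measure here, and it is given as a description. Among 13012 tested genes with an annotated 3' UTR, 12.8% held the word and 25% held its last 6 bases, TCAGTA, without it. Of 42 tested members 5 (11.9%) held the word: FZD5, LRP6, AXIN2, TCF7L2 and LGR4. Their sites are printed because LGR4 is the only called member among them, with the word in capitals, on the strand of the transcript and with GRCh38 coordinates of the capitals from GENCODE 29 models.

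FZD5, chr2:207765613-207765619: taaaatatagATCAGTAtagtgctacc
LRP6, chr12:12117318-12117324: ttgaccagttATCAGTAggtggacaaa
AXIN2, chr17:65528835-65528841: ttgactttaaATCAGTAcagtacctgt
TCF7L2, chr10:113166883-113166889: tgcattaaggATCAGTAgcattaacaa
LGR4, chr11:27367179-27367185: ctttggtccaATCAGTAattttttctt

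The LGR4 site lay 682 bases into a 3' UTR of 1906 bases and was in both of its coding transcripts. The site of LRP6 was in 1 of 3 coding transcripts, that of AXIN2 in 2 of 4, that of TCF7L2 in 8 of 14 and that of FZD5 in 1 of 1. Their log2 fold changes were -0.16 for FZD5, -0.0868 for LRP6, -0.94 for AXIN2, 0.0597 for TCF7L2 and -0.38 for LGR4. Of the 15 members that fell, 1 (LGR4) held ATCAGTA, 3 (FZD4, CSNK1A1 and SFRP1) held TCAGTA alone, and 11 held neither, among them WNT5B, FZD2, FZD7, TCF7L1, DKK3 and ZNRF3. By class, 20% of tested members with ATCAGTA fell, 25% of those with TCAGTA alone and 44% of those with neither, beside 43.2%, 28.8% and 19.8% of all tested genes in the same classes. These classes held only 5, 12 and 25 members. Over all tested genes they also differed in length, with median 3' UTRs of 3237, 2547 and 886 bases. The part of length in these shares was not tested. The 25 members with neither had a median log2 fold change of -0.18, beside 0.0405 over 8093 tested genes with neither, and the 5 with ATCAGTA one of -0.16, beside -0.12 over 1660 such genes. The shRNA sequence was not used here, and a link between this word and the shRNA was not tested.

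Promoters were searched for the core TCF/LEF motif CTTTGAA and its variants, which were CTTTGAT along with the forms CTTTGTA and also CTTTGTT, on both strands, from 250 bases before to 50 bases after each RefSeq start (GRCh38.p14). The motifs share their first 5 letters, are of equal length and differ in their last letters, so no 2 of them can match at 1 position. Of 33 members with a promoter sequence 4 (12.1%) held a motif, DKK1, TCF7, TCF7L2 and WNT3, beside 12.4% of 11187 tested genes and 16.4% of 27305 genes in all, a share near that of tested genes. The DKK1 windows are shown because DKK1 had the highest level per kilobase of the members and its promoter held a pair of motifs, in capitals on the plus strand.

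DKK1, chr10:52314186-52314192: cctcccagcgCTTTGAAatcccatccc
DKK1, chr10:52314205-52314211: cccatcccggCTTTGTTgtctccctcc

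The first of these motifs began 95 bases and the second 76 bases before the start. A match describes the letters of the window and does not show that a factor binds there. Of the 4 genes with a motif DKK1 rose, TCF7 and TCF7L2 did not pass the test and WNT3 was not tested.

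Target genes of the pathway were taken from a list of 21, of which 7 are members too (AXIN2, NKD1, RNF43, ZNRF3, TCF7, LEF1 and DKK1). Of 16 tested, 3 rose (18.8%) and 5 fell (31.2%), beside 25.2% and 23.6% of all tested genes. Among those that are not members, EPHB2, an ephrin receptor of intestinal crypts, averaged 25.9 ± 2.64 CPM in control and 12.2 ± 1.97 CPM in shMUC1 libraries (SD over 3 libraries), a log2 fold change of -1.08 (SE 0.101; edgeR adjusted p 1.87e-11). EPHB3, its relative, fell by 1.14 on the log2 scale (SE 0.345; edgeR adjusted p 0.00589) from at most 55 counts. FOSL1, an AP-1 subunit, and CCND1, the G1 cyclin D1, had log2 fold changes of -0.70 (SE 0.0335) and -0.30 (SE 0.0338), and SOX9 one of 0.18 (SE 0.0399), each past the threshold. SP5, a selective target of the β-catenin branch, had a log2 fold change of -0.35 (SE 0.285) and did not pass. LGR5, NOTUM, APCDD1 and ASCL2 had at most 8 counts in any library and were not tested. The list therefore did not move as a block: the feedback targets AXIN2 and NKD1 did not pass, ZNRF3 fell, and LEF1 and DKK1 rose.

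Other genes of the pathway were described from a list of 64, of which 45 were tested, with 11 higher and 11 lower (24.4% each), near the 25.2% higher and 23.6% lower of all tested genes. RSPO3, a secreted ligand of LGR receptors, had 12, 13 and 10 counts in control and 37, 55 and 19 in shMUC1 libraries, a log2 fold change of 1.63 (SE 0.398; edgeR adjusted p 0.000794). Of 11 planar polarity genes 3 rose (27.3%) and 5 fell (45.5%). PRICKLE1 rose by a log2 fold change of 1.45 (SE 0.268), and VANGL2, its membrane partner, averaged 54.8 ± 1.19 CPM in control and 28.7 ± 0.178 CPM in shMUC1 libraries (SD over 3 libraries), a log2 fold change of -0.94 (SE 0.0607; edgeR adjusted p 1.09e-15). CELSR2, an atypical cadherin of the same pathway, had a log2 fold change of -0.65 (SE 0.108). The formins DAAM1 and DAAM2, which bind Dishevelled, went opposite ways, with log2 fold changes of 0.72 (SE 0.0458) and -0.91 (SE 0.238).

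Of 10 nuclear cofactors 6 rose (60%) and 2 fell (20%), beside 25.2% and 23.6% of all tested genes. BCL9L, a β-catenin coactivator, was at 77.8 ± 1.48 CPM in control and 130.4 ± 2.9 CPM in shMUC1 libraries (SD over 3 libraries), a log2 fold change of 0.75 (SE 0.0419; edgeR adjusted p 1.85e-17). CTNNBIP1, which blocks β-catenin from TCF factors, also rose, by a log2 fold change of 0.63 (SE 0.0857; edgeR adjusted p 8.57e-08). Of 12 further destruction complex genes 1 rose and 1 fell (8.33% each), shares below the 25.2% and 23.6% of all tested genes. WLS, the carrier that takes WNT ligands to the surface, averaged 134.9 ± 4.94 CPM in control and 108.3 ± 2.0 CPM in shMUC1 libraries (SD over 3 libraries), a log2 fold change of -0.32 (SE 0.0406; edgeR adjusted p 2.95e-08), and was chosen after its value was seen.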

How the data were processed

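RNA-seq counts were analysed for 3 control and 3 shMUC1 libraries of MDA-MB-436 cells, made with a stranded mRNA kit. The file deposited by the authors holds unnormalized counts for each gene symbol and library. The submitters' processing notes name CASAVA 1.8.2, STAR 2.7.9a, featureCounts, DESeq2 1.24.0 and the build GRCh38.p7, with no settings or roles. Strand setting and annotation release are not given in the sources used here. Among values of 1 to 20 counts, 68.9% to 70.5% were even in each library, a feature whose cause was not tested, and halved counts were tried.

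Counts of 15355 genes kept by filterByExpr were fitted with edgeR 4.0.16 (R 4.3.3), TMM scaling and no term but the group. The quasi-likelihood test, which is sensitive to both directions, was adjusted by Benjamini-Hochberg over all tested genes, and the standard error (SE) was derived from its F statistic. CPM used TMM-scaled library sizes. A count of 0 was given a floor of 3 counts per library, and SDs, floors and intervals cover these 6 libraries and counting error only, without molecular identifiers. Cells were cultured in triplicate per the labels. Nothing else says that cultures were separate, so p-values measure the spread between these libraries.

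Alternatives were a replicate block, halved counts, each library left out, limma-voom (limma 3.58.1), DESeq2 1.42.0 and its size factors within edgeR, unscaled library totals, every gene kept whatever its count, genes averaging 50 counts or more, and a fold change over 1.5. Exon lengths, overlaps and 3' UTRs came from GENCODE 29 (GRCh38), and promoters from RefSeq (GRCh38.p14), whose primary chromosomes share coordinates with GRCh38.p7. RefSeq promoters were matched for 33 of 46 members. The fit was tested on simulated data. All 46 members were named whatever their values. From the wider list and the target list, up to 8 non-members each were named by largest change among those called that averaged 20 counts or more, and any other is said to be chosen after seeing values or named as not tested or not passing. Members and lists were chosen with earlier results of these data known.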

Additional observations from a re-analysis of the deposited data

How the results depend on the processing

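Of the 25 members that passed the test, 20 kept direction and call under every alternative run for them. The others, WNT4, WNT6, WNT7B, WNT10A and ROR1, lost the call in 25 of their values and never changed sign. Of 17 members that did not pass, 6 stayed so throughout, 16 values passed and 9 changed sign. Those 9 all came from leaving out 1 library and lay near 0: LRP5 (from -0.0266 to 0.0861 over the 6 such fits; -0.0266 and -0.0039 where the sign turned), DVL1 (from -0.105 to 0.0196), AXIN1 (from -0.0111 to 0.0618), GSK3B (from -0.0453 to 0.0067, and 0.001 where the sign also turned), TCF7 (from -0.1031 to 0.0189, and 0.0162) and NKD1 (from -0.1644 to 0.0079). The cause was not tested.

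Counts by adjusted p alone stayed within 1.5 times of their main values. Within that limit the members that fell, 15 in the main fit, numbered 11 with DESeq2 and 18 with unscaled library totals. They numbered 12 without shMUC1 replicate 2 and 12 without shMUC1 replicate 3. With a fold change over 2 as well, the count of members that rose was 1 among genes averaging 50 counts or more, 1 with DESeq2 and 1 with counts halved, and ran from 1 to 2 without 1 library, and the lost gene was WNT10A. The count that fell was 2 among genes averaging 50 counts or more and 2 with DESeq2, and 9 with a fold change over 1.5 by construction. A scaling by library totals moved the median of all genes by -0.022. Libraries sharing a replicate number showed no pairing: the deviations of such a pair correlated at -0.0382 to 0.0049, and not every library correlated best with its own number. With a replicate block the counts were 10 higher and 15 lower. WNT3, WNT3A, WNT4, WNT6, WNT10A, WNT11, RNF43 and NKD2 had at most 36 counts in any library, which limits the precision of their values.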
